A study of Mus musculus with 27 samples.

Results

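The clustered histone genes were the protein-coding genes with symbols of the form Hist1h to Hist4h, chosen by symbol and biotype alone, and they numbered 67 of the 54532 genes counted. They encode linker histone H1 (6 genes) and the core histones H2A (18), H2B (18), H3 (12) and H4 (13). On the mouse genome (build mm10, whose assembly is GRCm38) 54 of them lie in the Hist1 cluster on chromosome 13, between positions 21715763 and 23934851. A further 10 form Hist2 on chromosome 3 (96219865 to 96270132), 2 form Hist3 on chromosome 11 (58948920 to 58956830), and Hist4h4 stands alone on chromosome 6.

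RNA was sequenced from splenic B cells of wild-type (WT) C57BL6 mice, purified by negative selection with magnetic beads and cultured for 3 h. In experiment 1, 5 groups of 4 libraries were unstimulated B cells (NS), B cells stimulated with LPS, a T-independent stimulus, or under IL-4+anti-CD40, which stands in for T-cell help, and B cells given either stimulus with 1 μM disulfiram (DSF), an anti-alcoholism drug. Groups without an inhibitor received vehicle (DMSO). Experiment 2 had 7 groups of 1 library each: the same 5 conditions, and each stimulus with 1 μM ibrutinib, a BTK inhibitor. The study calls the RNA-seq samples biologically independent, but the sources used here give no age, sex or number for the mice that supplied these B cells, and p-values measure the spread between these libraries. No group received DSF or ibrutinib without a stimulus.

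Clustered histone genes are replication-dependent: most cells transcribe them mainly while copying DNA, when new chromatin needs histone protein. Their messages are unusual in lacking a poly(A) tail. The pre-mRNA is cut shortly after a conserved stem-loop, which is bound by the stem-loop binding protein Slbp. The cut also needs the U7 snRNP, and the same stem-loop governs the message's decay. Some of these genes also give polyadenylated RNA, mainly in cells that are not dividing, by using a poly(A) signal further downstream. The mRNA here was captured with poly-T beads, so the counts below are what was caught by that capture and not the whole output of these genes. Resting splenic B cells have left the cell cycle, and 3 h of stimulation comes before they would be copying DNA.

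The stem-loop is shown for the 10 of the 12 most abundant members in which a perfect one was found after the stop codon in a GENCODE vM21 coding model (GRCm38). Capitals mark the stem-loop itself, 6 paired bases on either side of a loop of 4, and 5 flanking bases are given on each side in the sense of the mRNA.
Hist1h1c, chr13:23739507-23739532, plus strand: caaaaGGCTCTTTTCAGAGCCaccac
Hist1h1d, chr13:23555782-23555807, plus strand: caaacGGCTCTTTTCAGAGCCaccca
Hist3h2a, chr11:58955167-58955192, plus strand: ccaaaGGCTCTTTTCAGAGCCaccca
Hist3h2ba, chr11:58949344-58949369, plus strand: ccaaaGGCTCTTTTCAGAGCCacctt
Hist1h2be, chr13:23585526-23585551, minus strand: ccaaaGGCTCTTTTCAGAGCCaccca
Hist1h4i, chr13:22040961-22040986, minus strand: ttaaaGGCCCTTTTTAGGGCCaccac
Hist2h4, chr3:96262934-96262959, minus strand: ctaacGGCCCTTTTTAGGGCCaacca
Hist1h4h, chr13:23531453-23531478, plus strand: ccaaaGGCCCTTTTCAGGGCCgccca
Hist1h4d, chr13:23581945-23581970, plus strand: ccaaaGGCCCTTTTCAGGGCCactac
Hist1h4c, chr13:23698084-23698109, minus strand: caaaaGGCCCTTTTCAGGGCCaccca

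Across the members, 44 had such a stem-loop, in 6 versions. The version of Hist1h1c was the most common, in 26 genes, all of them for H1, H2A, H2B or H3. The version of Hist1h4h was found in 7 genes and that of Hist1h4i in 2, all of them for H4. In the other 23 members, Hist2h2be and Hist1h2bc among them, no stem-loop of this form was found in any coding model. Only bases after the stop codon were searched. Many of these models, such as those of Hist1h4k, Hist1h2bl and Hist1h1b, end at the stop codon, so none could be found there. These 23 are therefore not shown to lack a stem-loop.

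The members differed in how far their annotated models run past the stem-loop. For 22 members the GENCODE model reached more than 100 bases past it (151 to 4884, median 761), and these held 70.6% of all member counts in experiment 1. The model ended within 100 bases of the stem-loop in 21 members (3 to 74 bases, median 31), which held 6.03%. The 23 with no stem-loop found in their models held 23.3%. A single member with models of both kinds held 0.042%. The median of the members' mean counts per library was 7.18 for the long models and 0.9 for the short ones. A longer model also collects reads over more bases: per length, in the authors' FPKM, the medians were 0.185 for the long and 0.0875 for the short models. The members with short models also tended to share more of their sequence with other genes. How far that lowered their counts was not tested. RefSeq ends 41 of the 44 models 0 to 10 bases after the stem-loop, and 20 of these run on for more than 100 bases in GENCODE. Hist1h1c ends 4 bases past the stem-loop in RefSeq and 840 in GENCODE, and Hist1h4i ends 6 and 330 bases past it.

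**Figure D1:**
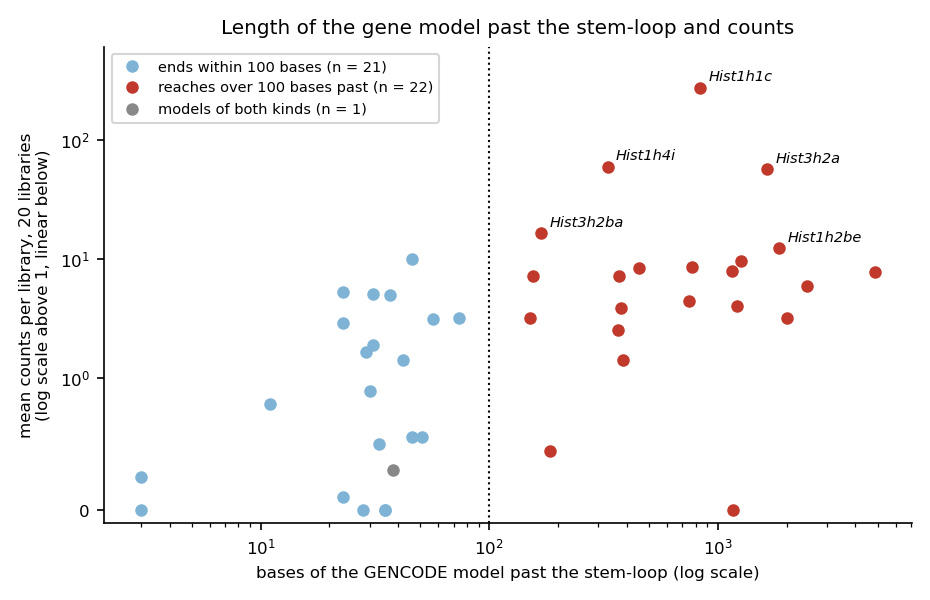
Mean counts per library over the 20 libraries of experiment 1 (y axis, log scale above 1) against the bases of the GENCODE model past the stem-loop (x axis, log scale), 1 point per member with a stem-loop. All 5 members labelled by name, with a mean of at least 10 counts, have models that reach over 100 bases past the stem-loop.

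Counts were few and uneven. Of the 67 members, 59 had any count in experiment 1 and 55 in experiment 2, and 8 were at 0 in all 27 libraries (Hist2h2aa1, Hist2h2aa2, Hist2h3c1, Hist2h3b, Hist2h2bb, Hist1h2ap, Hist1h4b and Hist1h2aa). At 0, the limit of 3 counts corresponds to 0.127 to 0.168 CPM (counts scaled to the library total) at the depths of experiment 1, for counting error only. Only 7 members had a mean of at least 10 counts per library in experiment 1, and 30 had a mean below 1. Hist1h1c (ENSMUSG00000036181, chromosome 13, 23738808 to 23740367, plus strand), for linker histone H1.2, held 38.4% of all member counts. With Hist2h2be and Hist1h2bc (H2B), Hist1h4i (H4) and Hist3h2a (H2A), 74.8% of the counts were accounted for. By class, H1 genes held 41.5% of member counts, H2B 27.7%, H4 16.5%, H2A 10.1% and H3 4.25%, and no H3 gene had a mean of 10 counts. Per length, in the authors' FPKM averaged over the 20 libraries, the order of levels was Hist1h1c (7.88), Hist1h4i (3.84), Hist1h2bc (2.60), Hist2h2be (1.36) and Hist3h2a (1.27).

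Near-identical copies and overlapping genes limit what the counts of single members mean. The 100-base windows of each member were compared, on either strand, with GENCODE transcripts of all kinds, coding and noncoding. The share found in no other gene had a median of 62.9% over members and was under 50% for 28 of them. For the 5 members with most counts it was between 70.2% and 100%. Of the 8 members at 0, 5 had no unique window. For each of these 5, an overlapping noncoding gene (Gm20628, Gm20632, Gm20633 or Gm20634) shared as many windows as any other gene. Hist3h2a overlaps Trim17 and Hist1h2be overlaps Hist1h1e and a pseudogene on the same strand, so their counts are uncertain.

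Promoters were compared with those of all genes in RefSeq's table (GRCm38.p6, 250 bases before to 50 after the start), which matched 62 members. The octamer ATTTGCAT, the site known for POU factors such as Pou2f1 and long linked with H2B genes, was present on either strand in 7 of 18 H2A and 7 of 16 H2B promoters and in no other member's. That was 22.6% of the members' promoters, against 1.97% of all 27025. CCAAT, on either strand, was present in 85.5% of members (3 of 12 H4 promoters) against 41.1% of all, and TATAAA in 56.5% against 15.7%. The 250 bases before the start are shown for Hist1h1c, the member with most counts, and for Hist3h2a, which moved with both stimuli and with DSF and has the octamer; capitals mark CCAAT and the octamer on either strand.
Hist1h1c, chr13:23738557-23738806, plus strand: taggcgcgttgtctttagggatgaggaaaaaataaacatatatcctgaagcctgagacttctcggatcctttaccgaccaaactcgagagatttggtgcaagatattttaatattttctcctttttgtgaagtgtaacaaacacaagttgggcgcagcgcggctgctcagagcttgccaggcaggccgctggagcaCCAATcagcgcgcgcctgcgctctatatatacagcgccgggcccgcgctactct
Hist3h2a, chr11:58954435-58954684, plus strand: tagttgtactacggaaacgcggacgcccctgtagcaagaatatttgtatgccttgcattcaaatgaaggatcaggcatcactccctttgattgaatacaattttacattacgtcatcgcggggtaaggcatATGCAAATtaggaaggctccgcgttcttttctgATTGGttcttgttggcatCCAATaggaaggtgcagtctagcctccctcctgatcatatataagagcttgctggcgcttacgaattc

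The unstimulated libraries did not form 1 set. NS replicates 1 and 2 resembled each other, as did replicates 3 and 4, with a root mean square log2 difference over 14671 genes of 0.320 and 0.342 within these pairs and 0.852 to 0.854 between them. In the other groups the same measure lay between 0.303 and 0.510. Hist1h1c had 999 and 866 counts in NS replicates 1 and 2 and 402 and 353 in replicates 3 and 4, whereas Hist3h2ba had 42 and 36 in the first pair and 75 and 91 in the second. Cd14 was at 35.5 and 36.9 CPM in the first pair and at 1.56 and 2.05 in the second. The labels name no batch for the pairs. Results against NS are therefore given with each pair left out as well. The libraries held 17804851 to 23632992 counts in experiment 1 and 16049295 to 24619776 in experiment 2.

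Markers of B cells and of other cells also differed between groups. The summed B cell markers (5 genes) ran from 5886 to 8213 CPM in NS, 4149 to 4254 with LPS and 3940 to 4443 under IL-4+anti-CD40. The 5 myeloid markers summed to 613 to 732 CPM in NS, 133 to 153 with LPS and 166 to 195 under IL-4+anti-CD40. Of these, 3 and 4 passed the test, all lower, where 33.3% and 32.1% of all genes were lower. Erythroid markers (9 genes) ran from 3.83 to 36.4 CPM in NS and 1.86 to 3.33 with LPS, neutrophil markers (6 genes) from 14.5 to 68.2 and 12.6 to 15.3, T cell markers (6 genes) from 5.13 to 11.3 and 3.06 to 4.04, and NK markers (5 genes) from 7.50 to 18.0 and 2.89 to 3.79. Plasma cell markers (4 genes) ran from 319 to 397 CPM in NS and 166 to 186 under LPS, and platelet markers (4 genes) from 2.38 to 4.05 and 3.11 to 3.73. With DSF the B cell sum was 2577 to 2642 CPM under LPS and 2816 to 2995 under IL-4+anti-CD40, below every library of the stimulus alone, and the myeloid sum was 126 to 129 and 189 to 252 CPM. The plasma cell marker sum was higher with DSF than in any library of the stimulus alone, at 209 to 225 CPM under LPS and at 203 to 218 against 158 to 176 CPM under IL-4+anti-CD40. Of 3 plasma cell markers tested, 2 passed upward and 1 downward under LPS, and 2 and 0 under IL-4+anti-CD40. Of 4 neutrophil markers tested, 3 passed upward with DSF under LPS and 2 under IL-4+anti-CD40. T cell markers summed to 4.16 to 5.65 and 4.27 to 5.27 CPM, above every library of the stimulus alone (2.31 to 3.43 CPM under IL-4+anti-CD40). Of 2 T cell markers tested under LPS, 1 passed upward and 1 downward, and the 1 tested under IL-4+anti-CD40 passed upward. Of all genes, 35.1% passed upward and 36% downward with DSF under LPS, and 30.1% and 31.6% under IL-4+anti-CD40. None of these markers was at 0 in all libraries. In bulk RNA, fewer cells of a type and less RNA per cell cannot be told apart, and the part of other cells in the histone results was not tested.

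Summed over the 67 members, the counts took a smaller share of the library after 3 h of either stimulus. In the 4 NS libraries the members took 79.7, 73.0, 64.1 and 67.1 CPM, with a mean of 71.0 ± 6.91 (SD, n = 4). With LPS they took 15.8, 14.9, 16.3 and 16.8 CPM (15.96 ± 0.826), and under IL-4+anti-CD40 21.9, 23.3, 21.0 and 24.2 CPM (22.6 ± 1.42). No library of either stimulus overlapped the NS libraries. The ratio of the means was 0.225 for LPS and 0.319 for IL-4+anti-CD40 against NS. Without Hist1h1c the ratios were 0.266 and 0.299.

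With DSF the sums were higher than with the stimulus alone. LPS+DSF libraries held 26.1, 28.2, 28.0 and 27.9 CPM (27.6 ± 0.999), 1.73 times the mean with LPS. IL-4+anti-CD40+DSF libraries held 37.4, 31.7, 33.2 and 31.9 CPM (33.6 ± 2.65), 1.48 times the mean under IL-4+anti-CD40. In both cases the libraries with and without DSF did not overlap, and both DSF groups stayed below every NS library. Since the sum is a score over chosen genes, it was given no test.

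**Figure D2:**
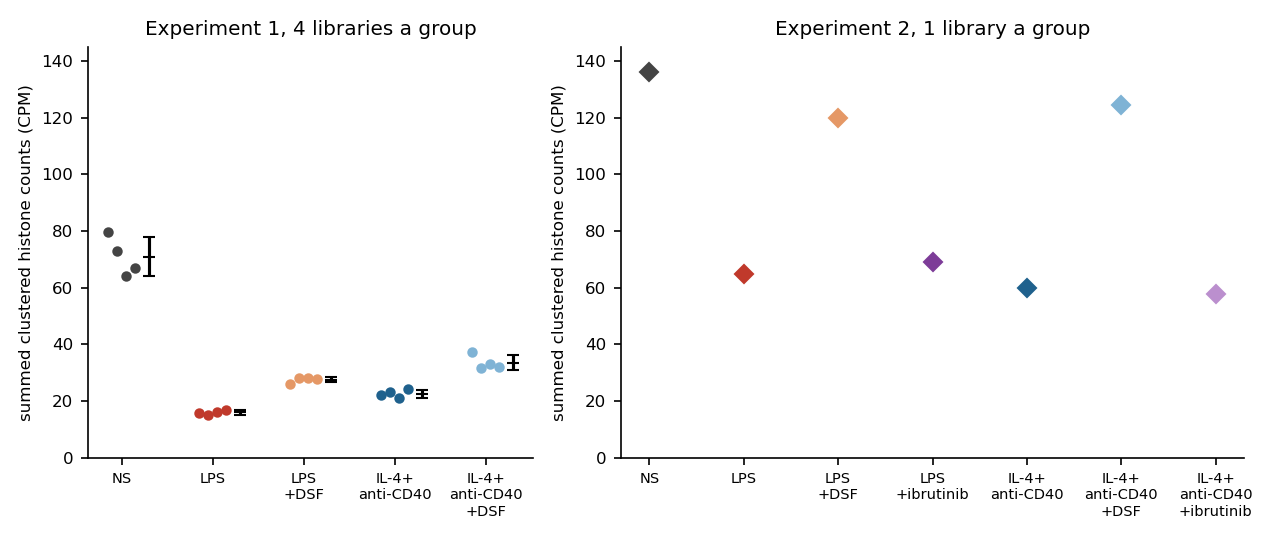
Summed counts of the 67 members in CPM (y axis, linear from 0) for each library of experiment 1 (circles, left, with mean and SD beside them) and of experiment 2 (diamonds, right, 1 library a group). In experiment 1 the LPS libraries sit between 14.9 and 16.8 CPM and the NS libraries between 64.1 and 79.7, and the DSF groups lie between these.

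The class sums were compared in the same way, without a test. With LPS against NS, the mean sums were in a ratio of 0.177 for H1, 0.170 for H2B, 0.307 for H3, 0.332 for H4 and 0.499 for H2A, with no overlap in any class. Under IL-4+anti-CD40 the ratios were 0.349 for H1, 0.241 for H2B, 0.419 for H3, 0.419 for H4 and 0.241 for H2A, again with no overlap. With DSF added to LPS they were 1.60 for H1, 1.58 for H2A, 1.84 for H2B and 1.85 for H4 without overlap, and 2.32 for H3 with overlap. With DSF added to IL-4+anti-CD40 they were 2.25 for H2A, 1.88 for H2B, 2.38 for H3 and 1.68 for H4 without overlap. H1 was the exception there, at 1.07, and its libraries overlapped.

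Other RNAs that lack a long poly(A) tail were measured beside the histone genes. The mitochondrial rRNAs took 537 to 838 CPM in NS, 581 to 656 with LPS, 732 to 747 with LPS+DSF, 680 to 738 under IL-4+anti-CD40 and 746 to 874 under IL-4+anti-CD40+DSF. They were thus above every library of the stimulus alone with DSF, and with either stimulus they lay within the range of NS. The snRNAs and snoRNAs took 117 to 131 CPM in NS, 165 to 187 with LPS, 181 to 228 with LPS+DSF, 189 to 220 under IL-4+anti-CD40 and 181 to 194 under IL-4+anti-CD40+DSF. A list of 9 other RNAs without a poly(A) tail summed to 8.36 to 20.3 CPM over all groups. On that list Rn7sk, the scaffold of the 7SK particle, was higher with DSF under LPS (log2 0.53, SE 0.13, adjusted p = 0.00108) and under IL-4+anti-CD40 (log2 0.48, SE 0.18, adjusted p = 0.0365), in edgeR. Their part in the histone result was not tested.

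Single members were tested with edgeR's quasi-likelihood test on all genes that passed its filter on low counts, with Benjamini-Hochberg adjustment and a threshold of 0.05. Log2 fold changes are after TMM normalization. Scaling by total counts alone moved the median gene by -0.23 for LPS against NS, -0.15 for IL-4+anti-CD40 against NS, -0.21 for LPS+DSF against LPS and -0.15 for IL-4+anti-CD40+DSF against IL-4+anti-CD40, and every called member kept its direction under it.

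With LPS against NS, 9 of 11 tested members were lower and 0 higher, where 33.3% of all 14477 genes were lower and 29.6% higher. The median log2 fold change was -1.54 for the tested members and -0.05 for all genes. The filter matters to this count: 6 of the 11 had fewer than 10 counts in some library, and 5 of those had at least 10 counts in all 4 NS libraries and in at most 1 LPS library, so that they passed through the group where they were high. The other 5, with at least 10 counts in all 8 libraries (Hist1h1c, Hist2h2be, Hist1h2bc, Hist1h4i and Hist3h2a), were each called lower. The remaining 56 members were not tested. Over the 57 members with any count in these libraries, the mean level was lower with LPS in 48 and higher in 9. Many had few counts, and of the 29 with at least 20 counts over the 8 libraries 27 were lower and 2 higher. These shares were not counted over all genes. The median log2 fold change of all genes with any count was -0.05.

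Under IL-4+anti-CD40 against NS, 9 of 11 tested members were lower and 0 higher, against 32.1% and 30.4% of all 14433 genes. The median log2 fold change was -1.65 for the tested members and -0.04 for all genes. As under LPS, the filter bears on this count and median: only the same 5 members had 10 counts in all 8 libraries, each called lower, and 5 of the other 6 had at least 10 counts in all 4 NS libraries and in at most 1 stimulated library. Of the 59 members with counts, the mean was lower in 49 and higher in 10. Of the 31 with at least 20 counts over the 8 libraries, it was lower in 28 and higher in 3. For all genes these shares were not counted, and their median log2 fold change with any count was -0.03. The stimulus comparisons share the NS libraries and are not independent of each other.

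With LPS+DSF against LPS, 5 of 5 tested members were higher, where 35.1% of all 14154 genes were higher and 36% lower. For IL-4+anti-CD40+DSF against IL-4+anti-CD40, 6 of 8 tested were higher and 0 lower, against 30.1% and 31.6% of 14275 genes. All 5 tested under LPS, and 5 of the 8 under IL-4+anti-CD40, had at least 10 counts in all 8 libraries, and of these 5 and 4 were called; the other 3 passed mainly through the DSF libraries. The median log2 fold changes of the tested members were 0.87 and 1.05, and those of all genes were 0.00188 and -0.02. Among members with any count, the mean was higher with DSF in 44 of 52 under LPS and in 40 of 56 under IL-4+anti-CD40. Among those with at least 20 counts over the 8 libraries it was higher in 26 of 27 and 22 of 27. These shares were not counted over all genes. All genes with any count themselves had a median log2 fold change of 0.12 and 0.04. The DSF comparisons share the stimulated libraries with those against NS.

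**Figure D3:**
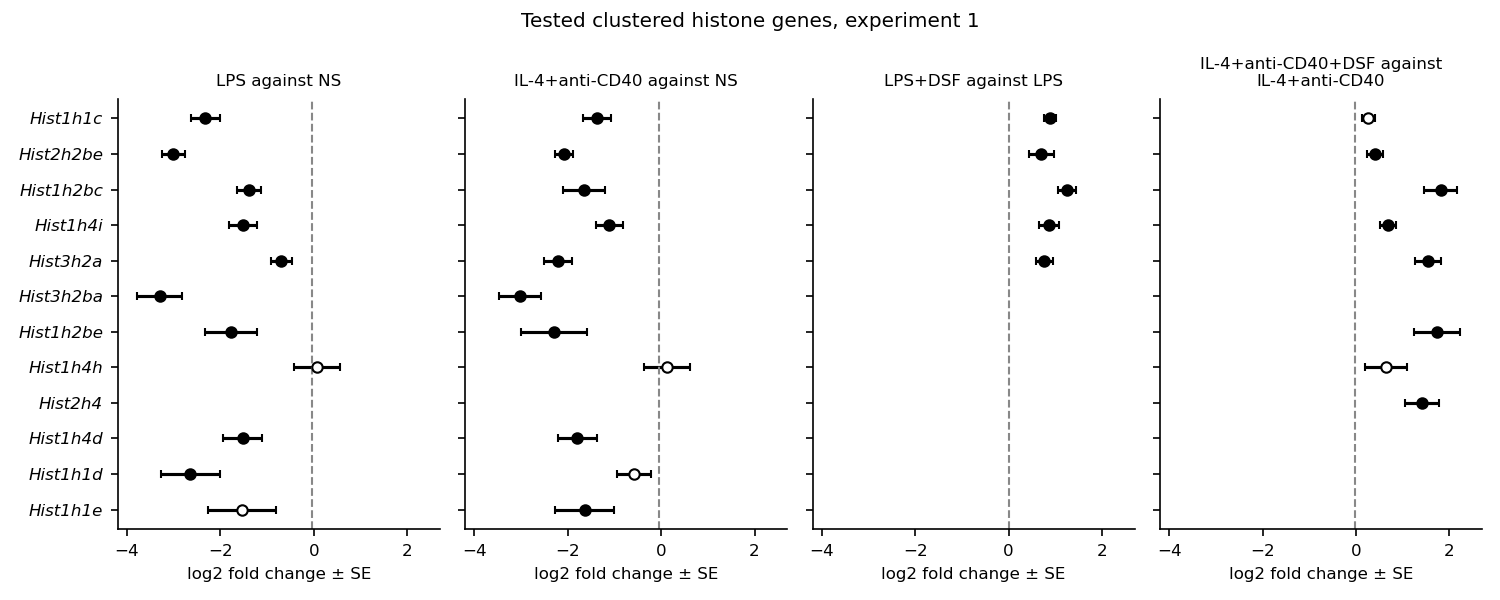
Log2 fold change ± SE (x axis) of each tested member (rows) in the 4 comparisons of experiment 1, 4 libraries a group, with called members as filled points and others as open points; the dashed line is the median of all genes. Against NS the called members lie left of the line, and with DSF they lie right of it.

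Among the H1 genes, which bind the linker DNA between nucleosomes, Hist1h1c led. Its level was 37.5, 33.5, 16.4 and 15.9 TMM-normalized CPM in NS, 5.43, 4.60, 4.74 and 5.87 with LPS, and 9.99985, 11.2, 7.55 and 9.76 under IL-4+anti-CD40. All stimulated libraries were below all NS libraries, and the NS pairs differed 2.20-fold between themselves. It fell 5.00-fold with LPS (log2 -2.32, SE 0.30, adjusted p = 0.000201) and 2.58-fold under IL-4+anti-CD40 (log2 -1.37, SE 0.30, adjusted p = 0.00338). With NS replicates 1 and 2 left out the log2 fold changes were -1.62 and -0.68, and with replicates 3 and 4 left out they were -2.78 and -1.86, all past the threshold.

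With DSF, Hist1h1c was at 7.83, 10.5, 8.94 and 10.5 TMM-normalized CPM under LPS, above every LPS library. It rose 1.86-fold (log2 0.90, SE 0.13, adjusted p = 7.78e-07). Under IL-4+anti-CD40+DSF it was at 14.5, 10.99, 11.1 and 11.6, which overlapped the libraries without DSF, and the log2 difference of 0.26 (SE 0.14) did not pass the test (adjusted p = 0.123). The difference between these DSF effects was itself tested in a fit of the 16 stimulated libraries: 1 of 9 tested members passed, Hist1h1c, with a log2 interaction of 0.63 (SE 0.19, adjusted p = 0.0327), where 7.92% of all 15130 genes passed in that direction and 6.96% in the other. That call was lost without LPS replicate 2 or 3, LPS+DSF replicate 2 or 4, IL-4+anti-CD40 replicate 1 or 2, or IL-4+anti-CD40+DSF replicate 2, 3 or 4, with log2 interactions from 0.54 to 0.61 and adjusted p from 0.0511 to 0.0747 in those fits, and with all 20 libraries in 1 fit (0.55, adjusted p = 0.371).

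Hist1h1d, for H1.3, had 15, 12, 15 and 14 counts in NS and 4, 3, 0 and 0 with LPS, and fell by 2.64 on the log2 scale (SE 0.63, adjusted p = 0.00569). Under IL-4+anti-CD40 it had 7, 9, 12 and 3 counts (log2 -0.58, SE 0.36, adjusted p = 0.190). Hist1h1e, for H1.4, had 14, 10, 39 and 21 counts in NS and 1, 3, 15 and 4 with LPS, and its log2 fold change of -1.54 (SE 0.73) did not pass (adjusted p = 0.0936). Under IL-4+anti-CD40 it passed at -1.64 (SE 0.63, adjusted p = 0.0468), with 1, 4, 7 and 10 counts that overlapped NS, and the call was lost without NS replicate 3 or 4 or IL-4+anti-CD40 replicate 1, 2 or 3 (adjusted p up to 0.136).

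Among the H2A genes, 1 member had enough counts to follow. Hist3h2a was at 4.02, 3.25, 3.39 and 5.18 TMM-normalized CPM in NS, 2.50, 3.02, 2.53 and 1.68 with LPS and 0.46, 0.83, 0.86 and 1.15 under IL-4+anti-CD40. The levels in both stimulated groups lay below NS without overlap. It fell 4.63-fold under IL-4+anti-CD40 (log2 -2.21, SE 0.29, adjusted p = 0.000184). With LPS it fell 1.62-fold (log2 -0.70, SE 0.23, adjusted p = 0.0261), a call that was lost without NS replicate 1 or 4 or LPS replicate 1, 3 or 4, with an adjusted p of up to 0.0656. With DSF it stood at 4.31, 3.65, 4.44 and 4.13 under LPS (1.70-fold higher, log2 0.77, SE 0.18, adjusted p = 0.000641) and at 3.28, 2.50, 1.72 and 2.54 under IL-4+anti-CD40 (2.92-fold higher, log2 1.54, SE 0.28, adjusted p = 0.000608). Neither DSF group overlapped its stimulus alone, and the interaction did not pass (log2 -0.78, SE 0.33, adjusted p = 0.128).

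Among the tested members the largest falls were in H2B genes, but Hist3h2ba and Hist1h2be passed the filter through NS, the group where they were high. Among the 5 members with at least 10 counts in all 8 libraries, Hist2h2be fell furthest with LPS. Under IL-4+anti-CD40 the H2A gene Hist3h2a did. Hist2h2be, for which no stem-loop was found, was at 7.55, 8.27, 11.2 and 11.6 TMM-normalized CPM in NS, 1.54, 0.79, 1.11 and 1.34 with LPS and 2.02, 1.95, 2.31 and 2.57 under IL-4+anti-CD40. It fell 8.08-fold with LPS (log2 -3.01, SE 0.25, adjusted p = 1.41e-05) and 4.21-fold under IL-4+anti-CD40 (log2 -2.07, SE 0.19, adjusted p = 2.74e-05), without overlap. DSF raised it 1.63-fold under LPS (log2 0.70, SE 0.27, adjusted p = 0.0255) and 1.33-fold under IL-4+anti-CD40 (log2 0.41, SE 0.17, adjusted p = 0.0492). In both DSF comparisons its libraries overlapped. The first call was lost without replicate 2 or 3 of either group (adjusted p up to 0.112). The second was lost without any one library other than IL-4+anti-CD40 replicate 4 and IL-4+anti-CD40+DSF replicate 2 (up to 0.138), and both were lost with total counts as scaling.

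Hist1h2bc, also for H2B and also without a stem-loop found, was at 5.33, 4.68, 3.76 and 2.66 TMM-normalized CPM in NS, 1.11, 1.75, 1.95 and 1.45 with LPS, and 0.55, 0.83, 0.99 and 2.73 under IL-4+anti-CD40, where replicate 4 stood above the others and reached the NS range. With DSF it was at 3.88, 4.00, 3.602 and 3.28 under LPS and at 5.04, 4.74, 4.37 and 4.29 under IL-4+anti-CD40. It fell 2.62-fold with LPS (log2 -1.39, SE 0.26, adjusted p = 0.00168) and 3.14-fold under IL-4+anti-CD40 (log2 -1.65, SE 0.45, adjusted p = 0.0108). DSF raised it 2.38-fold (log2 1.25, SE 0.20, adjusted p = 5.90e-06) and 3.53-fold (log2 1.82, SE 0.36, adjusted p = 0.000921), with no overlap in either. Without IL-4+anti-CD40 replicate 4 the latter log2 fold change was 2.46, and the interaction, which did not pass with all libraries (log2 -0.58, SE 0.42, adjusted p = 0.399), passed at -1.22 (adjusted p = 0.00603).

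Hist3h2ba, a neighbour of Hist3h2a in the Hist3 cluster, had 42, 36, 75 and 91 counts in NS, 5, 3, 5 and 7 with LPS and 8, 5, 8 and 4 under IL-4+anti-CD40. It fell 9.86-fold (log2 -3.30, SE 0.48, adjusted p = 0.000384) and 8.15-fold (log2 -3.03, SE 0.45, adjusted p = 0.000355). With DSF it had 5, 7, 3 and 6 counts under LPS and 6, 6, 5 and 3 under IL-4+anti-CD40, too few for it to be tested, and a difference was not detectable at this depth. Hist1h2be had 13, 12, 48 and 28 counts in NS and fell with LPS (7, 5, 4 and 8 counts, log2 -1.77, SE 0.56, adjusted p = 0.0217) and under IL-4+anti-CD40 (4, 6, 7 and 0 counts, log2 -2.30, SE 0.71, adjusted p = 0.0192). With NS replicates 3 and 4 left out both of these calls were lost (adjusted p = 0.266 and 0.154). The first was also lost without NS replicate 3 or LPS replicate 2 or 3 (up to 0.0621) and the second without NS replicate 3 or IL-4+anti-CD40 replicate 1 (up to 0.0504). With IL-4+anti-CD40+DSF Hist1h2be had 13, 16, 14 and 15 counts and rose 3.32-fold (log2 1.73, SE 0.49, adjusted p = 0.00905), without overlap. In that comparison it passed the filter through the DSF libraries, the group where it was high, and that selection favours a rise.

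No H3 gene passed the filter in any comparison. The H3 gene with most counts, Hist1h3e, had 15, 7, 23 and 10 counts in NS, 1, 3, 5 and 2 with LPS, 3, 7, 4 and 5 with LPS+DSF, 3, 6, 2 and 3 under IL-4+anti-CD40 and 13, 11, 10 and 10 under IL-4+anti-CD40+DSF. The raw counts in NS lay above those with either stimulus. In TMM-normalized CPM, NS still lay above LPS, but NS replicate 2 (0.271) was below IL-4+anti-CD40 replicate 2 (0.278).

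Among the H4 genes, Hist1h4i was at 3.38, 2.78, 4.79 and 6.85 TMM-normalized CPM in NS, 1.78, 1.40, 1.42 and 1.62 with LPS and 1.74, 2.13, 1.90 and 2.15 under IL-4+anti-CD40. It fell 2.85-fold with LPS (log2 -1.51, SE 0.30, adjusted p = 0.00204) and 2.16-fold under IL-4+anti-CD40 (log2 -1.11, SE 0.29, adjusted p = 0.00842). With DSF it was at 2.25, 2.51, 3.41 and 3.11 under LPS and 3.68, 2.76, 3.95 and 2.95 under IL-4+anti-CD40, and rose 1.83-fold (log2 0.87, SE 0.21, adjusted p = 0.000773) and 1.62-fold (log2 0.69, SE 0.17, adjusted p = 0.00404). In these 4 comparisons of Hist1h4i the groups did not overlap.

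Among the comparisons of 2 groups, Hist2h4 was tested only with DSF under IL-4+anti-CD40, where it had 12, 18, 12 and 15 counts against 4, 6, 8 and 3 without and rose 2.65-fold (log2 1.41, SE 0.36, adjusted p = 0.00527). There Hist2h4 passed the filter through the DSF libraries, the group where it was high, and that selection favours a rise. Its counts were 9, 18, 15 and 9 in NS, 3, 2, 6 and 1 with LPS and 13, 8, 14 and 15 with LPS+DSF. Hist1h4d had 12, 12, 22 and 22 counts in NS, and it fell with LPS (5, 3, 5 and 6 counts, log2 -1.52, SE 0.42, adjusted p = 0.0111) and under IL-4+anti-CD40 (6, 4, 3 and 3 counts, log2 -1.80, SE 0.42, adjusted p = 0.00476). The LPS call was lost with NS replicates 3 and 4 left out (log2 -0.93, adjusted p = 0.134). Hist1h4h, whose model ends 46 bases past the stem-loop, had 15, 11, 8 and 4 counts in NS, 4, 15, 4 and 9 with LPS and 12, 8, 12 and 2 under IL-4+anti-CD40. Its log2 fold changes of 0.06 (SE 0.49) and 0.13 (SE 0.50) did not pass (adjusted p = 0.920 and 0.837), both turned negative with total counts as scaling, and its groups overlapped in all 3 comparisons that tested it. Hist1h4c was not tested: it had 10, 11, 30 and 23 counts in NS, 2, 8, 6 and 4 with LPS and 4, 1, 5 and 1 under IL-4+anti-CD40.

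**Figure D4:**
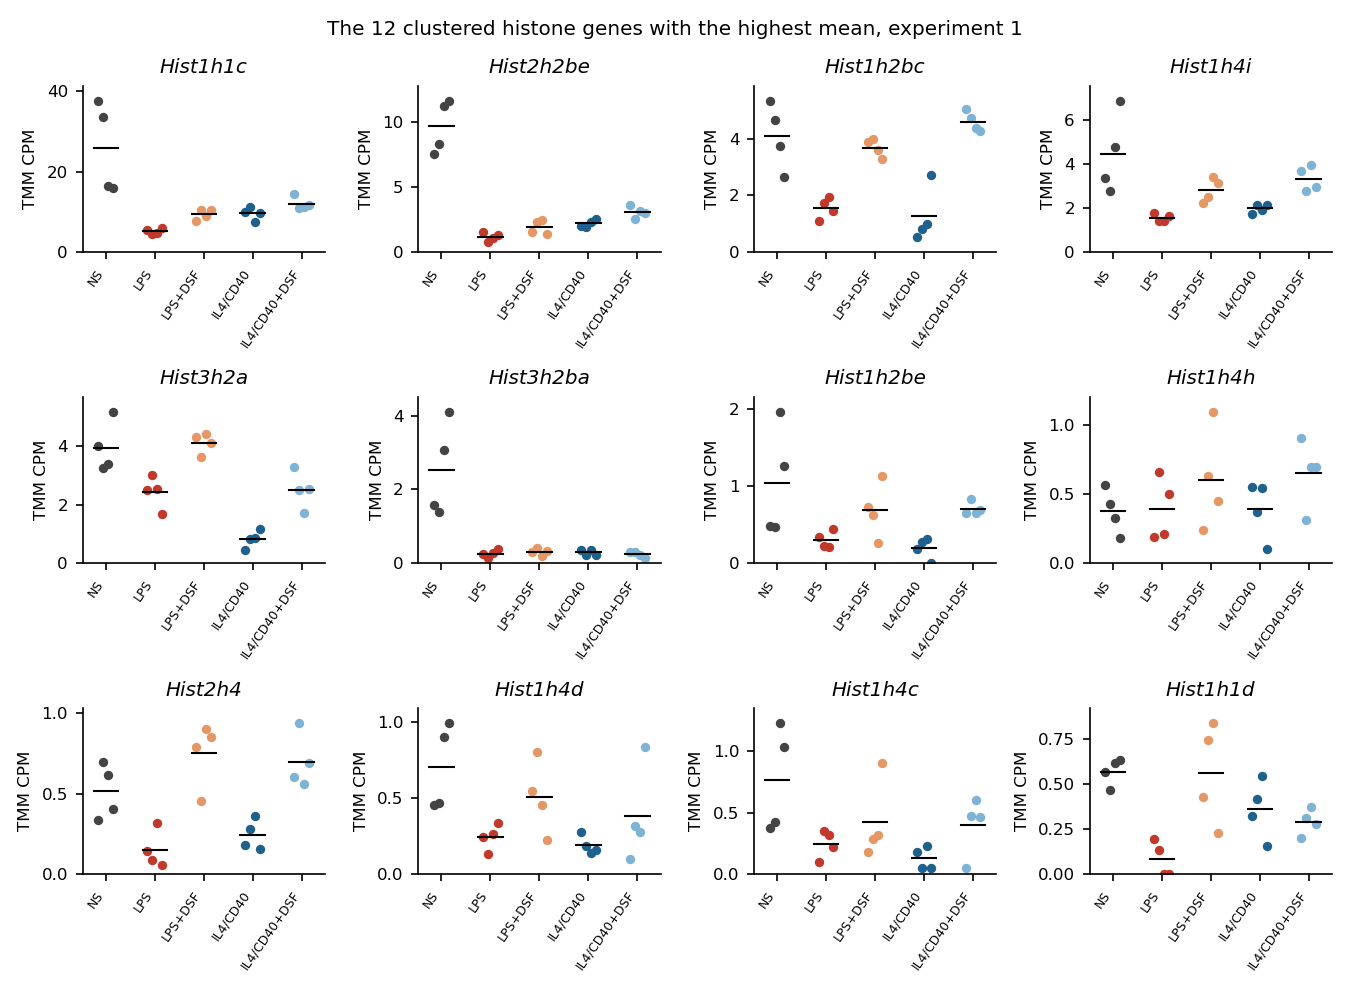
TMM-normalized CPM (y axis, linear from 0, its own scale in each panel) of the 12 members with the highest mean in the 5 groups of experiment 1, 1 point per library and a line at the mean. Hist1h1c is split within NS, and Hist3h2ba stays at 3 to 8 counts in every stimulated library. The DSF libraries of several members, among them Hist1h2bc, Hist2h4, Hist3h2a and Hist1h4i, overlap NS.

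Leaving out a pair of NS libraries changed how many members were called lower. With LPS the number was 14 of 15 tested without NS replicates 1 and 2, where 5902 of 15229 genes were lower. Without replicates 3 and 4 it was 7 of 11, where 5238 of 15090 genes were lower. Under IL-4+anti-CD40 it was 13 of 15 (5545 of 15335 genes) and 7 of 11 (4705 of 15066 genes). The number of members tested thus changed as well. No member was called higher in these fits. The 5 members with 10 counts in all 8 libraries were called in each of them, with log2 fold changes from -0.56 (Hist3h2a with LPS) to -3.23 (Hist2h2be with LPS).

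The genes that make, cut and replace these messages were followed in lists written with earlier results of these data known. Their counts stand beside the shares of all genes called, which were 29.6% higher and 33.3% lower for LPS against NS, 30.4% and 32.1% for IL-4+anti-CD40 against NS, 35.1% and 36% for DSF under LPS, and 30.1% and 31.6% for DSF under IL-4+anti-CD40. Of 12 genes for histone 3′ processing, DSF lowered 8 and raised 3 under LPS and lowered 8 and raised 2 under IL-4+anti-CD40. This list was not limited to factors particular to histone messages. Cpsf2, Cpsf3, Sympk and Cstf2 on it also act in ordinary cleavage and polyadenylation. Among the lowered were Cpsf3, the nuclease that makes the cut (log2 -0.93, SE 0.05, adjusted p = 2.10e-14 with LPS; -0.75, SE 0.06, adjusted p = 2.48e-06 under IL-4+anti-CD40), and its scaffold Sympk (-0.89, SE 0.04, adjusted p = 4.14e-15; -0.79, SE 0.06, adjusted p = 1.81e-06). Zfp473, which binds the U7 snRNP and the pre-mRNA, rose (2.10, SE 0.24, adjusted p = 1.84e-08; 1.62, SE 0.22, adjusted p = 7.59e-05). The list's medians were -0.31 and -0.36 on the log2 scale, against 0.00188 and -0.02 for all genes. With stimulation alone, 4 rose and 3 fell with LPS and 6 rose and 1 fell under IL-4+anti-CD40, with Ncbp1, a subunit of the cap-binding complex, the most changed (0.60, SE 0.07, adjusted p = 0.000137; 0.84, SE 0.10, adjusted p = 8.35e-05).

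Of 15 further genes for general cleavage and polyadenylation, 12 rose and 1 fell with LPS and 13 rose and 0 fell under IL-4+anti-CD40. With DSF 4 of these rose and 5 fell under each stimulus, near the shares of all genes. Pcf11, which helps end transcription, rose with DSF (log2 0.86, SE 0.04, adjusted p = 2.28e-15; 0.60, SE 0.06, adjusted p = 1.21e-05), and Papolg, a poly(A) polymerase, fell (-0.64, SE 0.07, adjusted p = 1.21e-08; -0.75, SE 0.07, adjusted p = 6.10e-06). Of 6 genes for histone mRNA decay, 4 rose and 0 fell with LPS and 3 rose and 2 fell under IL-4+anti-CD40. With DSF 3 rose and 2 fell, and 4 rose and 1 fell. Eri1, the exonuclease that trims the stem-loop end, rose with LPS (0.34, SE 0.05, adjusted p = 0.000681), under IL-4+anti-CD40 (0.71, SE 0.06, adjusted p = 1.69e-05), and with DSF on top of LPS (0.49, SE 0.05, adjusted p = 1.54e-09) or IL-4+anti-CD40 (0.16, SE 0.04, adjusted p = 0.00691).

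Of 7 genes for histone gene transcription and its cyclin E-Cdk2 input, 1 rose and 4 fell with LPS and 2 rose and 2 fell under IL-4+anti-CD40, the latter near the shares of all genes. Npat, the coactivator of histone clusters, rose (log2 0.49, SE 0.11, adjusted p = 0.00444; 0.35, SE 0.11, adjusted p = 0.0249), and Ccne1, cyclin E1, fell (-1.32, SE 0.31, adjusted p = 0.00563; -2.37, SE 0.35, adjusted p = 0.000347). With DSF 4 rose and 1 fell under LPS and 4 rose and 0 fell under IL-4+anti-CD40, with Ccne2, cyclin E2, the most changed (0.61, SE 0.13, adjusted p = 0.000131; 0.59, SE 0.12, adjusted p = 0.00106).

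Of 15 S-phase genes, DSF lowered 10 and raised 3 under each stimulus, while stimulation moved 3 up and 3 down with LPS and 5 up and 1 down under IL-4+anti-CD40. Rrm1, a subunit of ribonucleotide reductase, fell with DSF (log2 -0.90, SE 0.06, adjusted p = 1.17e-12; -0.67, SE 0.08, adjusted p = 2.24e-05). The median log2 fold change over the list was -0.15 and -0.31 with DSF, against 0.00188 and -0.02 for all genes. Histone variants with genes outside the clusters, most of them made from ordinary polyadenylated messages, were listed as 11 genes. With LPS 0 rose and 4 fell of 9 tested, and under IL-4+anti-CD40 1 rose and 4 fell of 10. H3f3a, for H3.3, fell (-0.45, SE 0.06, adjusted p = 0.000328; -0.81, SE 0.07, adjusted p = 1.94e-05). With DSF 5 rose and 3 fell, and 4 rose and 3 fell, of 9 tested. The linker variant H1f0 fell with DSF (-1.94, SE 0.23, adjusted p = 4.78e-08; -1.65, SE 0.23, adjusted p = 7.81e-05), and Cenpa, the centromeric H3, rose (1.07, SE 0.06, adjusted p = 2.58e-14; 1.36, SE 0.10, adjusted p = 1.33e-06). Of 19 histone chaperones, 9 rose and 4 fell with LPS and 11 rose and 2 fell under IL-4+anti-CD40. With DSF 7 rose and 8 fell under LPS, near the shares of all genes, and 3 rose and 8 fell under IL-4+anti-CD40. Chaf1b, of the chromatin assembly factor that deposits new H3 and H4, rose with DSF (2.33, SE 0.09, adjusted p = 2.16e-17; 1.94, SE 0.20, adjusted p = 1.10e-05).

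In experiment 2 each condition was 1 library, so its values have no replicate check and the intervals cover counting error only. The members took 136 CPM in NS, 64.9 with LPS, 60.0 under IL-4+anti-CD40, 120 with LPS+DSF, 124 under IL-4+anti-CD40+DSF, 69.0 with LPS and ibrutinib and 57.9 under IL-4+anti-CD40 and ibrutinib. Hist1h1c made up 56.5% to 65.5% of these counts, more than in any library of experiment 1 (26.7% to 55.5%). On the log2 scale after TMM the summed ratio was -0.92 for LPS against NS (95% interval -1.03 to -0.82) and -1.04 for IL-4+anti-CD40 against NS (-1.15 to -0.94). With DSF it was 1.19 against LPS (1.09 to 1.30) and 1.30 against IL-4+anti-CD40 (1.19 to 1.41). With ibrutinib it was 0.0975 against LPS (-0.0131 to 0.209) and -0.0675 against IL-4+anti-CD40 (-0.183 to 0.0485).

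At the same dose and time the sums were 120 CPM with DSF and 69.0 with ibrutinib under LPS, and 124 and 57.9 under IL-4+anti-CD40. Mitochondrial rRNAs were also higher in the libraries with DSF, at 1539 and 1689 CPM, than in those with the stimulus alone (952 and 807) or with ibrutinib (1011 and 910), and so were markers of other cells. Platelet markers summed to 86.5 and 76.5 CPM with DSF, against 45.2 and 37.2 with the stimulus alone and 47.3 and 37.9 with ibrutinib, for LPS and IL-4+anti-CD40 in turn. Myeloid markers summed to 50.9 and 48.9 CPM with DSF, 15.4 and 15.9 without and 16.6 and 16.1 with ibrutinib, plasma cell markers to 307 and 294, 192 and 178, and 218 and 188, and erythroid markers to 64.4 and 57.5, 31.6 and 28.9, and 54.4 and 27.3. The B cell markers were lower with DSF (2529 and 2816 CPM) than without (4640 and 4239) and higher with ibrutinib (6173 and 6426). The part of all these in the histone values was not tested. With 1 library each, differences between libraries and between inhibitors cannot be told apart.

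Of the 17 members with a mean of at least 10 counts in experiment 2, 15 had a lower ratio with LPS against NS and 16 under IL-4+anti-CD40, and 15 and 16 had a higher one with DSF. A ratio of 2-fold or more below NS was seen in 8 members with LPS and 9 under IL-4+anti-CD40, where 9.88% and 13.7% of all 14275 genes reached it. None was 2-fold or more above NS (8.62% and 10.7% of all genes). With DSF, 9 and 12 were 2-fold or more higher, where 20.3% and 21.9% of all genes were, and 1 and 0 lower (19.5% and 20.3%). With ibrutinib 3 and 2 were 2-fold or more higher and 3 and 0 lower, against backgrounds of 2.81% and 2.23% higher and 2.47% and 1.69% lower. The median log2 ratios of the 17 members were -0.99, -1.07, 1.14, 1.55, 0.20 and 0.17 for LPS and IL-4+anti-CD40 against NS, DSF against each stimulus, and ibrutinib against each stimulus, in that order. For all genes they lay between -0.0397 and 0.00944.

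Hist1h1c had 1625 counts in NS, 690 with LPS and 692 under IL-4+anti-CD40, and 1415 and 1129 when DSF was added. Its log2 ratio with DSF was 1.14 under LPS and 1.08 under IL-4+anti-CD40, where the log2 fold changes in experiment 1 were 0.90 and 0.26. Hist1h2bc had 192 counts in NS, 106 and 77 with the stimuli and 251 and 261 with DSF. Hist3h2ba had 42 counts in NS, 10 with LPS and 3 under IL-4+anti-CD40, and 33 and 26 with DSF, where its counts in experiment 1 had stayed at 3 to 7 in every DSF library. Hist2h4 had 13 counts in NS, 1 with either stimulus and 34 and 19 with DSF. Hist1h1e went the other way under LPS, with 20 counts without and 6 with DSF (log2 ratio -1.40).

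**Figure D5:**
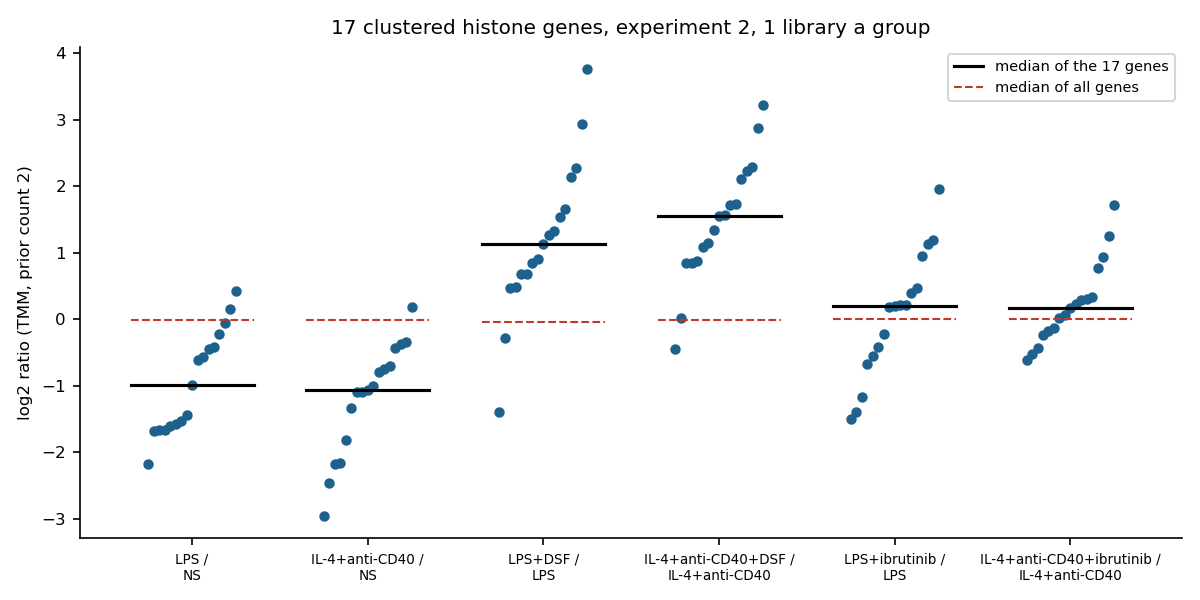
Log2 ratios (y axis, TMM-normalized, prior count of 2) of the 17 members with a mean of at least 10 counts in the 6 comparisons of experiment 2, 1 library a group, sorted within each comparison. The black line is their median (-0.99, -1.07, 1.14, 1.55, 0.20 and 0.17 from left to right) and the dashed line is the median of all genes, near 0.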

How the data were processed

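Poly-T-selected RNA of mouse splenic B cells was sequenced in 27 libraries. Per the labels, the authors mapped reads to mm10 with HISAT2 v2.0.5 and deposited the unnormalized counts per gene from featureCounts v1.5.0-p3, after Fastp trimming. The authors also deposited the FPKM they calculated from these counts, whose denominator was 0.869 to 1.18 times the total counts in experiment 1. The annotation release and strand setting are not given in the sources used here, and the labels name both directional and non-directional libraries, so counts of overlapping genes are uncertain. How multi-mapped reads were counted is not given either, which bears on near-identical histone copies. All members had the same coordinates in the files and in GENCODE vM21. Gene models came from GENCODE vM21 and RefSeq, and promoters from RefSeq.

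For experiment 1, edgeR 4.0.16 in R 4.3.3 (filterByExpr, then TMM and the quasi-likelihood test, adjusted p under 0.05) was applied to the counts, on the 8 libraries of each comparison or the 16 stimulated libraries for the interaction. Sums and FPKM were described without a test. Experiment 2 had TMM-normalized log2 ratios with a prior count of 2. On simulated data for LPS+DSF against LPS, 194 of 200 genes planted at 3-fold were found with 14 false calls among 14154 genes. Named members were the 12 with the highest mean TMM-normalized CPM, and in each comparison the 3 per direction with the largest change past the threshold, with others named where they help; from related lists up to 4 genes a comparison were eligible. The members and lists were chosen with earlier results of these data known. Replicates differed by more than sampling noise in all 30 pairs (chi-square per gene 2.74 to 81.5). Alternatives were scaling by total counts or DESeq2's size factors, DESeq2 1.42.0 itself, all genes with any count, 1 fit of 20 libraries, a replicate block, leaving out each library and, chosen after seeing the data, leaving out pairs of NS libraries.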

Additional observations from a re-analysis of the deposited data

Results flagged for a closer look

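The difference in the DSF effect between the stimuli passed the test for Hist1h1c, with a log2 interaction of 0.63 (edgeR, adjusted p = 0.0327), larger under LPS than under IL-4+anti-CD40. The call was lost in 9 of the 16 fits that each left out 1 library and in the fit of all 20 libraries (adjusted p = 0.371), and in experiment 2 the log2 ratios with DSF were 1.14 and 1.08, with 1 library a group and no test. In LPS+DSF replicate 1 the summed member level was 26.1 CPM, apart from the other 3 libraries at 27.9 to 28.2 CPM. In IL-4+anti-CD40+DSF replicate 1 Hist1h1c was at 13.7 CPM, apart from the other 3 at 10.3 to 10.6 CPM. Of 65 groups of 4 values examined for a lone library by Dixon's criterion, these 2 were past it, and chance alone gives about 1 in 20.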

How the results depend on the processing

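Depth limited most members: 56 to 62 of the 67 were not tested in a comparison. The filter changed the counts most. With all genes with any count, 16 of 57 members were lower with LPS (4966 of 27189 genes). With LPS+DSF 13 of 52 were higher (5330 of 27630), and 2 of 58 passed the interaction upward (1083 of 29710). Under IL-4+anti-CD40 the numbers moved less, with 11 of 59 lower (4923 of 27325) and 9 of 56 higher with DSF (4417 of 27593), near the shares of all genes. With all 20 libraries in 1 fit 14 of 15 were lower with LPS (5355 of 15575) and 8 of 15 higher with LPS+DSF (4282 of 15575). Without NS replicates 1 and 2, 14 of 15 were lower with LPS (5902 of 15229). The numbers called lower against NS, or higher with DSF, otherwise stayed within 1.5 times the main ones, including DESeq2 and the replicate block (9, 9, 5 and 5) and total counts (9, 9, 4 and 5), and no called direction reversed. Leaving out each library gave 8 to 11 members lower with LPS, 7 to 12 lower under IL-4+anti-CD40, 5 to 7 higher with LPS+DSF, 5 to 7 higher under IL-4+anti-CD40+DSF, 0 to 3 higher and 0 to 1 lower in the interaction; 0 passed upward without LPS+DSF replicate 2, 3 without LPS+DSF replicate 1, and 1 downward without IL-4+anti-CD40 replicate 4. The cause was not tested.

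Same-numbered libraries did not deviate together (correlations from -0.056 to 0.169, 2 of 16 over 0.1), so the numbers are not taken as pairs. With the replicate block the LPS call of Hist3h2a (adjusted p = 0.0809) and the IL-4+anti-CD40+DSF call of Hist2h2be (0.0861) were lost.

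Mean sums with TMM were 61.4 CPM in NS, 31.9 with LPS+DSF and 20.9 under IL-4+anti-CD40. In CPM scaled by total counts and without Hist1h1c they were 40.9 in NS, 10.9 with LPS, 19.4 with LPS+DSF, 12.2 under IL-4+anti-CD40 and 22.3 under IL-4+anti-CD40+DSF, and in summed FPKM 48.8 in NS, 13.8 under LPS and 18.2 under IL-4+anti-CD40. The ratio of LPS to NS was 0.263 with TMM, 0.266 without Hist1h1c and 0.283 in FPKM, and that of IL-4+anti-CD40 to NS 0.373 in FPKM. The ratio of LPS+DSF to LPS was 1.97 with TMM and 1.99 in FPKM, and that of IL-4+anti-CD40+DSF to IL-4+anti-CD40 1.71 with TMM, 1.83 without Hist1h1c and 1.70 in FPKM. Leaving out each library gave ratios of 0.218 to 0.235, 0.309 to 0.332, 1.69 to 1.76 and 1.43 to 1.52. With total counts, the summed log2 ratios of experiment 2 were -1.07 and -1.18 against NS and 0.89 and 1.05 with DSF.

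Hist1h4h, never called, changed sign against NS. Under LPS its log2 fold change was -0.17 with total counts, -0.32 with NS replicates 3 and 4 left out and -0.33 to 0.34 over fits leaving out 1 library. Under IL-4+anti-CD40 these were -0.0275, -0.28 and -0.0892 to 0.43, and its interaction of -0.04 ran from -0.47 to 0.36.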
